A study of Homo sapiens with 4 samples.

Results

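Tumour cells carry surface ligands that lymphocytes and macrophages read, and 10 genes for such ligands were followed here in RNA of human bladder cancer cells with and without a knockdown of SCD1. The genes were CD274, PDCD1LG2, CD276, CD47, PVR, NECTIN2, MICA, ULBP2, TNFSF9 and TNFSF18, chosen by name out of 32485 genes listed in either of 2 deposited tables. TNFSF18 was put among them because of its difference in SW780, and the others were picked with earlier results of these data known, so their directions are given as descriptions. SCD1 is stearoyl-CoA desaturase, whose gene symbol is SCD and which makes monounsaturated fatty acids. The 4 groups were UMUC3 shNT, UMUC3 shSCD1, SW780 shNT and SW780 shSCD1, with 1 RNA-seq library each. Both lines are established bladder cancer lines, cultured in MEM (UMUC3) or DMEM (SW780) with serum. The shSCD1 cells were made with lentivirus and their genotype is given as SCD1 knockdown, while that of the shNT cells is given as WT. The sources used here do not give the hairpin sequences, whether a line was a clone, or how many cultures went into a library.

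Checkpoint ligands bind inhibitory receptors on T cells and macrophages and lower their activity, and recognition ligands bind activating receptors on NK and T cells. PD-L1 and PD-L2, the products of CD274 and PDCD1LG2, bind PD-1, and transcription of CD274 is known to be raised by interferon-gamma. In bladder cancer PD-1 and PD-L1 are drug targets. CD47 binds SIRP-alpha on macrophages and restrains engulfment, PVR and NECTIN2 bind the inhibitory TIGIT and the activating CD226, MICA and ULBP2 bind the activating NKG2D, and TNFSF9 and TNFSF18 bind the co-stimulatory receptors 4-1BB and GITR.

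With 1 library per group there was no replicate check and no test within a line, so that higher and lower are said of single libraries only. Totals over the genes of each table were between 22818368 and 34087871 reads, and levels are given in CPM, a gene's reads per 1000000 reads of that total. Ratios are log2((shSCD1 CPM + 1)/(shNT CPM + 1)), and a ratio of at least 1 in size, with at least 1 CPM in either library, is said to pass the size rule. Folds are ratios of CPM with exact Clopper-Pearson 95% intervals from the reads, which cover counting error only. The tables number their libraries without naming them. The later column was taken for shSCD1, because the tables are named for that knockdown and their fold changes divide the later column by the earlier, and every direction would turn round in a line whose columns stood in the other order. SCD was 4.44-fold lower in the later column of UMUC3 and 6.43-fold lower in that of SW780. Keratin genes of epithelium set the lines apart: KRT7 stood at 4.43 and 1.26 CPM in UMUC3 (shNT and shSCD1) and at 4880 and 4431 CPM in SW780, and KRT19 had 0 reads in UMUC3.

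More of the ligand genes lay below 0 than above it in UMUC3, and more above than below in SW780. Of 8 ligand genes with at least 1 CPM in UMUC3, 6 had ratios below 0 and 2 above, with a median of −0.27, beside a median of 0.04 over all 14063 genes kept, of which 45.7% were below 0 and 54.3% above. Of 9 kept in SW780, 8 had ratios above 0 and 1 below, with a median of 0.35, beside −0.008 over all 12880 genes kept, of which 48.5% were above 0 and 51.5% below. No ligand gene passed the size rule in UMUC3, where 4.64% of genes did, and TNFSF18 alone passed it in SW780, where 2.54% did in either direction and 1.48% upwards. Without TNFSF18, 7 of 8 were above 0 in SW780 with a median of 0.25, the interval lay above 1 for 5 of 8 and none passed the size rule. By counting error, the interval of the fold lay below 1 for 6 of the 8 in UMUC3 (29.6% of all genes) and above 1 for 1 (35.9%), and in SW780 it lay above 1 for 6 of the 9 (28.0%) and below 1 for 0 (29.8%). The authors' deposited tables give a GFOLD value, which pulls a log2 fold change in towards 0 where reads are few, below 0 to the same number in UMUC3, 6 of 8 (34.9% of all genes), and above 0 to 6 of 9 in SW780 (25.7%). The genes that missed the filter were PDCD1LG2 and TNFSF18 in UMUC3 and TNFSF9 in SW780. In UMUC3 ULBP2 and TNFSF9 passed it through 1 library each, so their ratios rest on few reads.

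**Figure D1:**
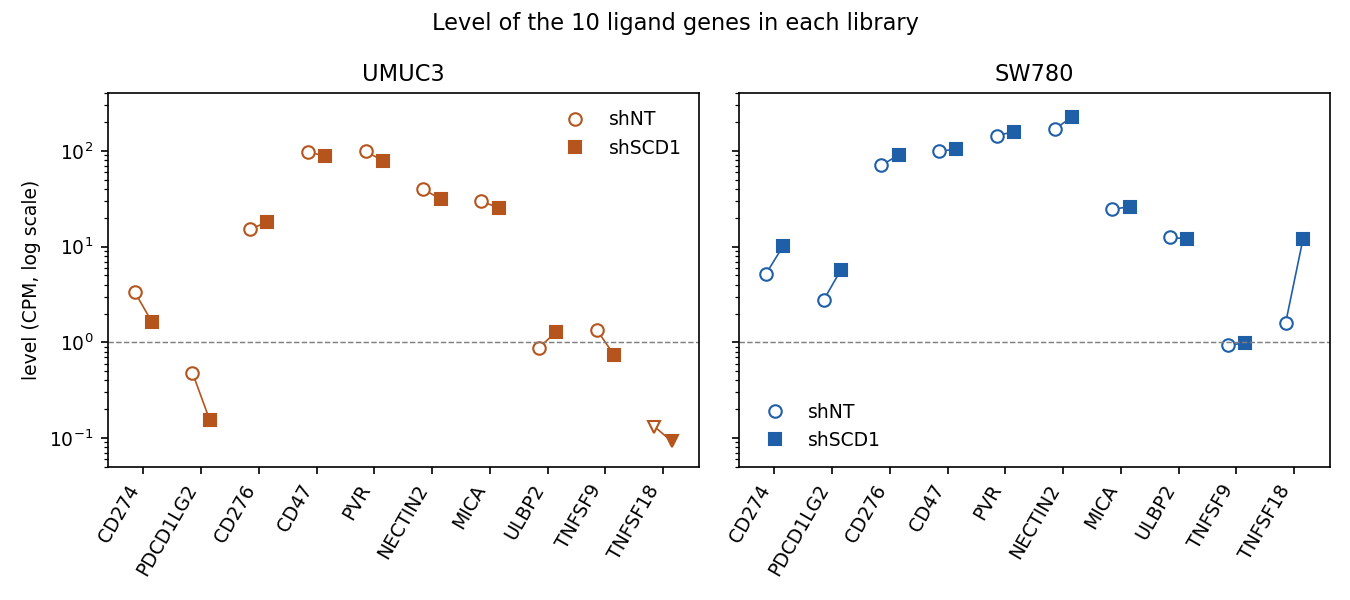
Level of each of the 10 ligand genes in CPM (log axis) in the shNT library (open circle) and the shSCD1 library (filled square) of UMUC3 (left) and SW780 (right). Triangles stand for 0 reads, drawn at the level of 3 reads, and the dashed line marks 1 CPM; in UMUC3 most pairs step down to the right and in SW780 up, with TNFSF18 going from 1.58 to 11.9 CPM.

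CD274 and PDCD1LG2, the PD-1 ligand genes, stood at low levels in both lines, lower in UMUC3 shSCD1 and higher in SW780 shSCD1 than in the shNT library. They are neighbours on chromosome 9, CD274 from 5450503 to 5470566 and PDCD1LG2 from 5510570 to 5571254, both on the plus strand (GRCh38, GENCODE 29), with 40.0 kb between them, and neither shares exonic bases with another gene. CD274 (ENSG00000120217) had 77 reads in UMUC3 shNT and 53 in UMUC3 shSCD1, or 3.37 and 1.63 CPM. It was thus 2.07-fold lower in the shSCD1 library (1.44 to 3.00), a log2 ratio of −0.73. In SW780 it had 176 and 260 reads, or 5.16 and 10.2 CPM, and was 1.97-fold higher in shSCD1 (1.62 to 2.40), a log2 ratio of 0.86. The UMUC3 ratio lay above 4.29% of the genes kept in that line and the SW780 ratio above 97.7%.

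PDCD1LG2 (ENSG00000197646) followed the same order of libraries. It had 11 and 5 reads in UMUC3 shNT and shSCD1, 0.482 and 0.154 CPM, which is 3.14-fold lower with an interval from 1.00 to 11.5. In SW780 it had 94 and 146 reads, 2.76 and 5.71 CPM, and was 2.07-fold higher (1.59 to 2.71). The PD-1 ligand genes thus stood lowest in UMUC3 shSCD1 and highest in SW780 shSCD1. JAK2, which encodes a kinase of interferon-gamma signalling and lies 322 kb before CD274, stood at 35.9 and 37.2 CPM in UMUC3 and at 12.6 and 12.3 CPM in SW780. The SW780 fold of CD274 was 4.08 times that of UMUC3 (2.69 to 6.22, conditional exact interval of the reads) and that of PDCD1LG2 6.47 times (2.00 to 24.5).

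The promoter of CD274 is shown because it holds letters of the elements through which interferons act. The window is chr9:5450292-5450591 on the plus strand, 250 bases before the start of the gene to 50 after (RefSeq, GRCh38.p14), written 5′ to 3′, with matches to the core of the interferon-stimulated response element, ISRE (GAAA and GAAA with any 2 bases between, on either strand), and TTCNNNGAA (the gamma-activated site, GAS) in capitals.
CD274: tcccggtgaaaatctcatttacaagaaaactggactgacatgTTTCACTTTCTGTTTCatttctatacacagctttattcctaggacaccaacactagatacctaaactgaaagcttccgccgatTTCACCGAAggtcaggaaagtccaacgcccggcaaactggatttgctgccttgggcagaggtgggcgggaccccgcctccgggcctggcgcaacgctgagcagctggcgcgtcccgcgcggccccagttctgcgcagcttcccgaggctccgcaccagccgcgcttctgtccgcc
The capitals hold 2 overlapping ISRE core matches, which begin 208 and 202 bases before the start, and 1 GAS match, which begins 125 bases before it. Of 35116 promoter windows of this length 3.57% hold an ISRE core match and 7.66% a GAS match. A window was found for 9 of the 10 genes, and an ISRE core match stands in those of CD274 and TNFSF9 and a GAS match in that of CD274. A match describes letters and shows no binding.

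**Figure D2:**
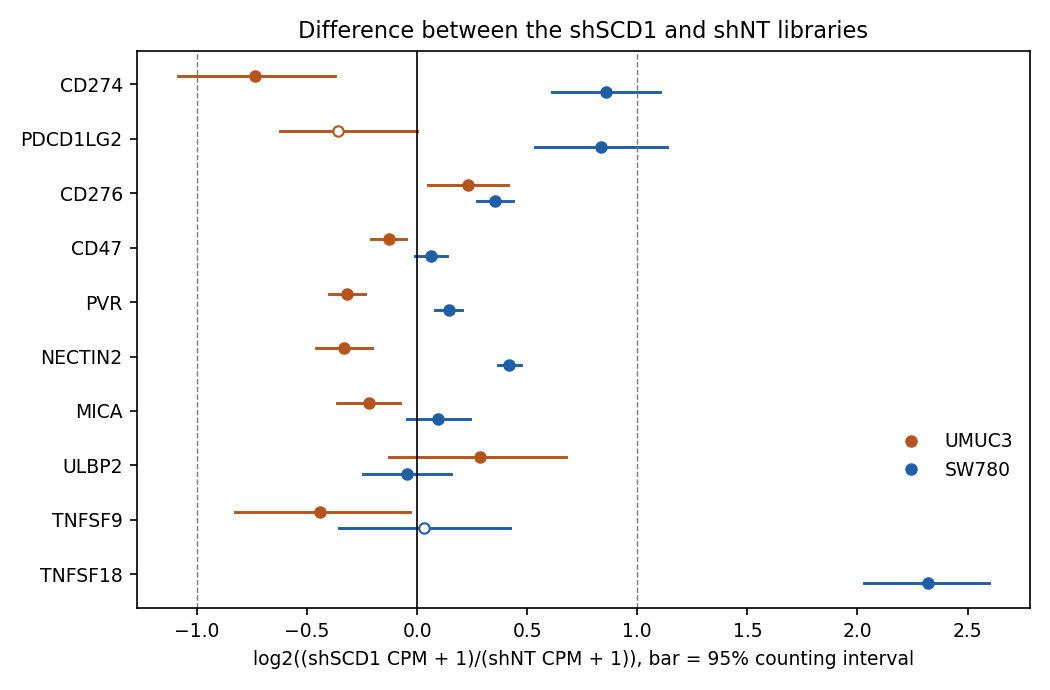
Log2 ratio of shSCD1 over shNT (CPM plus 1) for each ligand gene in UMUC3 (brown) and SW780 (blue), with bars for the 95% counting interval; open points had under 1 CPM in both libraries and dashed lines mark the size rule. CD274, PVR and NECTIN2 have bars on opposite sides of 0 in the lines, and TNFSF18 stands alone beyond 1 with a ratio of 2.32.

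CD276, which encodes B7-H3, a B7 family member abundant on many carcinomas, was somewhat higher in the shSCD1 library of both lines. It had 349 and 590 reads in UMUC3, 15.3 and 18.1 CPM, 1.19-fold higher (1.04 to 1.36). In SW780 it had 2417 and 2324 reads, 70.9 and 91.0 CPM, 1.28-fold higher (1.21 to 1.36). The SW780 fold was 1.08 times the UMUC3 fold with an interval from 0.93 to 1.25, so a difference between the lines was not detectable at this depth. CD276 lies on chromosome 15 from 73683966 to 73714518.

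CD47 stood at almost the same level in all 4 libraries. In UMUC3 shNT and shSCD1 it had 2224 and 2898 reads, 97.5 and 89.1 CPM, and in SW780 3403 and 2668 reads, 99.8 and 104 CPM. The level in UMUC3 shSCD1 was 1.09-fold lower (1.04 to 1.16), and that in SW780 shSCD1 was 1.05 times the shNT level with an interval from 0.99 to 1.10. SIRPA, the gene of its receptor, which cells other than macrophages also express, went further: 61.8 and 78.2 CPM in UMUC3, 1.26-fold higher (1.18 to 1.35), and 9.33 and 24.3 CPM in SW780, 2.60-fold higher (2.27 to 2.99). QPCTL, the enzyme that modifies the end of CD47 bound by SIRP-alpha, stood at 15.5 and 9.77 CPM in UMUC3 and at 13.6 and 10.2 CPM in SW780.

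PVR and NECTIN2 are the ligands of TIGIT and CD226, and both were lower in UMUC3 shSCD1 and higher in SW780 shSCD1. They lie 183 kb apart on chromosome 19, PVR from 44643798 to 44663583 and NECTIN2 from 44846175 to 44889228. PVR had 2263 and 2580 reads in UMUC3, 99.2 and 79.3 CPM, 1.25-fold lower (1.18 to 1.32). In SW780 it had 4934 and 4086 reads, 145 and 160 CPM, 1.10-fold higher (1.06 to 1.15). NECTIN2 had 909 and 1024 reads in UMUC3, 39.8 and 31.5 CPM, 1.27-fold lower (1.16 to 1.39). In SW780 it had 5773 and 5792 reads, 169 and 227 CPM, 1.34-fold higher (1.29 to 1.39). These differences were small, and the counting intervals of the lines lay on opposite sides of 1 for both genes.

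MICA and ULBP2 encode ligands of NKG2D, an activating receptor of NK cells and CD8 T cells. MICA had 682 and 831 reads in UMUC3, 29.9 and 25.5 CPM, 1.17-fold lower (1.06 to 1.30), and 836 and 672 reads in SW780, 24.5 and 26.3 CPM, a fold of 1.07 with an interval from 0.97 to 1.19. ULBP2 had 20 and 42 reads in UMUC3, 0.876 and 1.29 CPM, a fold of 1.47 (0.85 to 2.65), and 427 and 309 reads in SW780, 12.5 and 12.1 CPM, a fold of 0.97 (0.83 to 1.12). ULBP2 therefore differed between the lines, and a difference between the libraries of a line was not detectable at this depth. MICA resembles MICB, and ULBP2 resembles RAET1L and other genes of its cluster on chromosome 6, so reads may have been shared out between copies, and how the authors' counter treated such reads is not given in the sources used here.

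TNFSF9, the gene of the 4-1BB ligand, stood near 1 CPM everywhere. It had 31 and 24 reads in UMUC3, 1.36 and 0.738 CPM, 1.84-fold lower (1.05 to 3.28), and 32 and 25 reads in SW780, 0.939 and 0.978 CPM, a fold of 1.04 (0.59 to 1.82). TNFRSF9, which encodes 4-1BB itself, had 74 and 9 reads in UMUC3, 11.7-fold lower in shSCD1 (5.85 to 26.6), and 8 and 10 reads in SW780. Receptor and ligand were thus both lower in UMUC3 shSCD1, the receptor by more. The promoter of TNFSF9 is printed as the other window with an ISRE core match, in capitals, at chr19:6530776-6531075 on the plus strand (RefSeq, GRCh38.p14).
TNFSF9: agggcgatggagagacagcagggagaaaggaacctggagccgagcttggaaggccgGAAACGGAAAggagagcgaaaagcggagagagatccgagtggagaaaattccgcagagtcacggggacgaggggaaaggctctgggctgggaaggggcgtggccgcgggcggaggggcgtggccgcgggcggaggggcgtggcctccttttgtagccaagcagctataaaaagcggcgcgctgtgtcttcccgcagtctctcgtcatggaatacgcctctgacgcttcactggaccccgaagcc
The match begins 194 bases before the start.

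TNFSF18, the gene of the GITR ligand, was the member with the largest difference, by which it was chosen. It lies on chromosome 1 from 173039960 to 173050963 on the minus strand. It had 54 reads in SW780 shNT and 304 in SW780 shSCD1, 1.58 and 11.9 CPM, 7.51-fold higher (5.61 to 10.2), a log2 ratio of 2.32 that ranks 15th from the highest of 12880 genes. In both UMUC3 libraries it had 0 reads, which allows up to 0.131 CPM in shNT and 0.0922 CPM in shSCD1 (3 reads). The authors' deposited table gives it a log2 fold change of 2.89 and a GFOLD value of 2.42 in SW780. TNFRSF18, the gene of GITR, had 1 and 0 reads in SW780.

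TNFSF4, the gene of the OX40 ligand, is the neighbour of TNFSF18 at 133 kb and was looked up for that reason after its values were seen. It had 109 and 184 reads in SW780, 3.20 and 7.20 CPM, 2.25-fold higher (1.77 to 2.88), and 17 and 10 reads in UMUC3. The promoter of TNFSF18 is shown as that of the gene with the largest difference, at chr1:173050892-173051191 on the minus strand (RefSeq, GRCh38.p14), with no capitals because neither motif above occurs.
TNFSF18: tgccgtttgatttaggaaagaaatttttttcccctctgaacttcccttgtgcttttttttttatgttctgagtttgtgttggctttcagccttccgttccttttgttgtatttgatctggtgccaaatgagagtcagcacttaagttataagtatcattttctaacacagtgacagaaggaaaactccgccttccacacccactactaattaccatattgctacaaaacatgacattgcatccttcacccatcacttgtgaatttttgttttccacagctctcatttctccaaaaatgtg
Of its bases 38.0% are G or C, against 57.3% in the CD274 window. TGANTCA (AP-1), GGGA and CC with any 4 bases between (NF-kB) and GGAATG (TEAD), searched on both strands, did not occur in it either. These letters stand in 7.71%, 25.6% and 14.0% of all windows. Of the 9 genes with a window, ULBP2 held the AP-1 letters, PVR the TEAD letters, and CD274, CD276 and PVR the NF-kB letters. The NF-kB letters of CD274 are not in capitals above. Over the 4 libraries, the protein-coding genes whose pattern lay nearest that of TNFSF18 (Euclidean distance in log2(CPM + 1), each gene centred on its mean, among 11543 genes with at least 5 CPM in a library) were TGFB2, at a distance of 0.101, and ALOX5AP, at 0.402. With CPM over the genes of both tables, TGFB2 stood at 0.0903 and 0.190 in UMUC3 and at 1.94 and 13.3 in SW780.

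**Figure D3:**
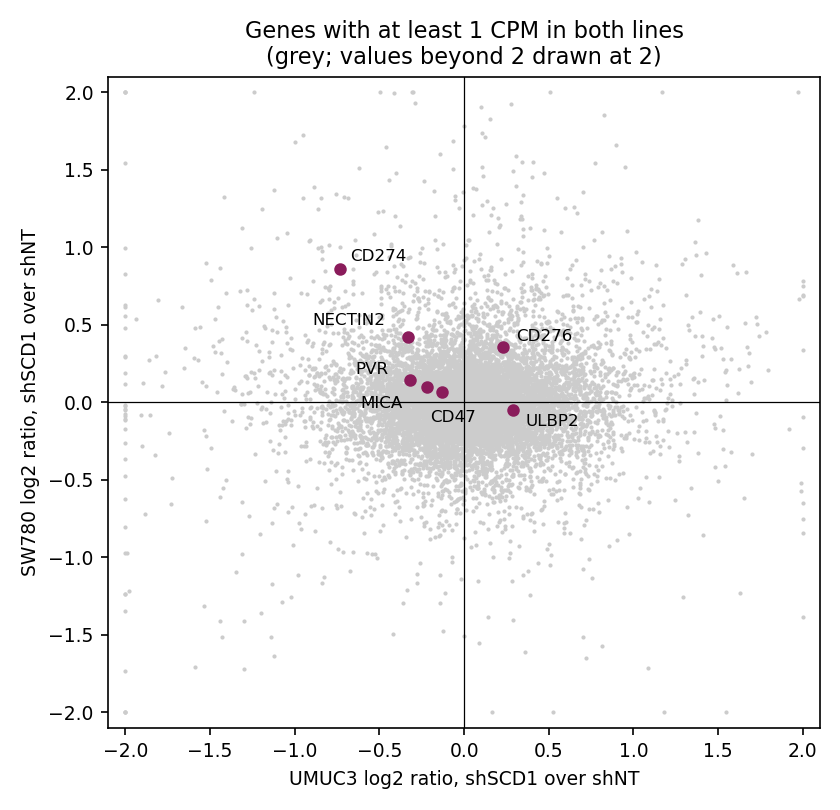
Log2 ratio of shSCD1 over shNT in UMUC3 (x axis) against SW780 (y axis) for the 11152 genes kept in both lines (grey) and the 7 ligand genes among them (purple, named). CD274, NECTIN2, PVR, MICA and CD47 lie in the upper left, CD276 in the upper right and ULBP2 in the lower right.

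Of the 7 ligand genes kept in both lines, 5 had a ratio below 0 in UMUC3 and above 0 in SW780 (CD274, NECTIN2, PVR, MICA and CD47), where 22.5% of the 11152 genes did. With both counting intervals away from 1 there were 3 (CD274, PVR and NECTIN2), where 9.58% of genes did. No alternative tried turned the sign of a ligand gene's ratio in either line, though GFOLD is 0 for some. Other pseudocounts and filters cannot turn a sign, so only the scalings and the authors' values could have done so. Whether the lines differ beyond the spread between cultures could not be tested with 1 library per group.

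The lines also differed before the knockdown. With CPM over the 15415 genes of both tables, which were scaled separately by the authors, ULBP2 was 14.1-fold higher in SW780 shNT than in UMUC3 shNT (9.03 to 23.3), PDCD1LG2 5.65-fold (3.02 to 11.7), CD276 4.58-fold (4.09 to 5.14) and NECTIN2 4.20-fold (3.91 to 4.51). TNFSF18 was at least 11.9-fold higher against a floor of 3 reads. CD274 was 1.51-fold (1.15 to 2.00) and PVR 1.44-fold higher (1.37 to 1.52). CD47 was level, at 1.01-fold (0.96 to 1.07), MICA was 1.23-fold lower in SW780 (1.11 to 1.37), and TNFSF9 was at 0.68-fold with an interval from 0.40 to 1.16. These are bulk RNA levels, in which fewer expressing cells and less RNA per cell cannot be told apart.

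On the same totals over the genes of both tables, and per kilobase of exon, PVR led in UMUC3 shNT with 29.1 CPM per kb, followed by MICA and CD47 with 12.9 and 12.2, NECTIN2 with 11.0 and CD276 with 2.84. CD274, TNFSF9 and ULBP2 followed with 0.847, 0.841 and 0.670, then PDCD1LG2 with 0.210 and TNFSF18 at 0. In this order MICA and CD47 had overlapping Poisson intervals, and so had CD274, TNFSF9 and ULBP2. In SW780 shNT NECTIN2 led with 46.0 CPM per kb, then came PVR with 41.9, CD276 with 13.0 and CD47 with 12.4 (overlapping), MICA with 10.5 and ULBP2 with 9.45 (overlapping), and CD274, PDCD1LG2, TNFSF18 and TNFSF9 with 1.28, 1.19, 0.803 and 0.574, each overlapping its neighbour. In SW780 shSCD1 TNFSF18 stood at 6.02 CPM per kb, above CD274 and PDCD1LG2 with 2.52 and 2.46. PVR, MICA and CD47 thus stood at over 10 CPM per kb in all 4 libraries and the PD-1 ligand genes below 3, while NECTIN2 was at 8.67 in UMUC3 shSCD1 and ULBP2 at 0.670 and 0.988 in UMUC3.

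Other genes of these pathways were taken from lists that include the genes above, so the list medians partly restate the ligand results. Of all genes kept, 4.64% passed the size rule in UMUC3 and 2.54% in SW780, so few or none of a short list would pass at those shares. Among B7 and butyrophilin genes, BTNL9 was higher (2.55-fold, 2.00 to 3.29) and BTN3A3 lower (3.15-fold, 2.18 to 4.63) by the size rule among 11 kept in UMUC3, and none of 12 passed in SW780. The list medians were −0.06 and 0.16. Among nectins and their relatives, CADM1, a ligand of the NK receptor CRTAM, was lower in UMUC3 (3.60-fold, 2.66 to 4.93) out of 6 kept, and none of 8 passed in SW780, with medians of −0.07 and 0.23.

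Of the NKG2D ligands, RAET1E had 100 reads in UMUC3 shNT and 0 in shSCD1, at least 47.5-fold lower against 3 reads, and was alone among 6 kept in passing the size rule. As 35.8% of its exonic bases are shared with another gene, its reads are uncertain. In SW780 none of 7 passed, and RAET1E had 132 and 64 reads. The list medians were −0.05 and 0.06.

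TNF superfamily ligands had medians of −0.40 over 4 kept genes in UMUC3 and 0.29 over 8 in SW780. CD70, the ligand of CD27, was lower in UMUC3 (10.5 and 4.39 CPM, 2.39-fold, 1.94 to 2.97), and TNFSF18 alone passed in SW780. Of the genes of engulfment, CD24, a ligand of Siglec-10, was lower in UMUC3 (28.2 and 9.93 CPM, 2.84-fold, 2.48 to 3.26) out of 7 kept, and SIRPA alone passed in SW780 out of 8, with medians of −0.24 and 0.12.

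Among other inhibitory and adhesion ligands, TNFRSF14, the ligand of BTLA, was lower in UMUC3 with 43 and 13 reads (4.72-fold, 2.49 to 9.56), out of 8 kept. In SW780 3 of 13 were higher: LGALS9, a galectin that binds TIM-3 (23.7 and 61.4 CPM, 2.59-fold, 2.38 to 2.82), LGALS1 (15.6 and 35.6 CPM, 2.28-fold, 2.04 to 2.54) and NT5E, the enzyme CD73 that makes adenosine (32.2 and 71.5 CPM, 2.22-fold, 2.06 to 2.39). The median of that list was 0.0007 in UMUC3 and −0.26 in SW780, so in SW780 its higher genes stood against a lower middle.

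Of 24 kept regulators of PD-L1, IFNGR1, a chain of the interferon-gamma receptor, alone passed the size rule in UMUC3 (84.4 and 34.2 CPM, 2.47-fold lower, 2.29 to 2.66), and none of 24 passed in SW780. The medians were −0.07 and −0.002. IRF1, a transcription factor induced by interferons, stood at 6.31 and 7.22 CPM in UMUC3 and at 149 and 161 CPM in SW780. CMTM6, which keeps PD-L1 at the cell surface, stood at 153 and 139 CPM and at 353 and 335 CPM. None of 8 genes of shedding and of glycolipid anchors passed in either line. Their ratios ran from −0.61 to 0.41 in UMUC3 and from −0.77 to 0.43 in SW780.

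**Figure D4:**
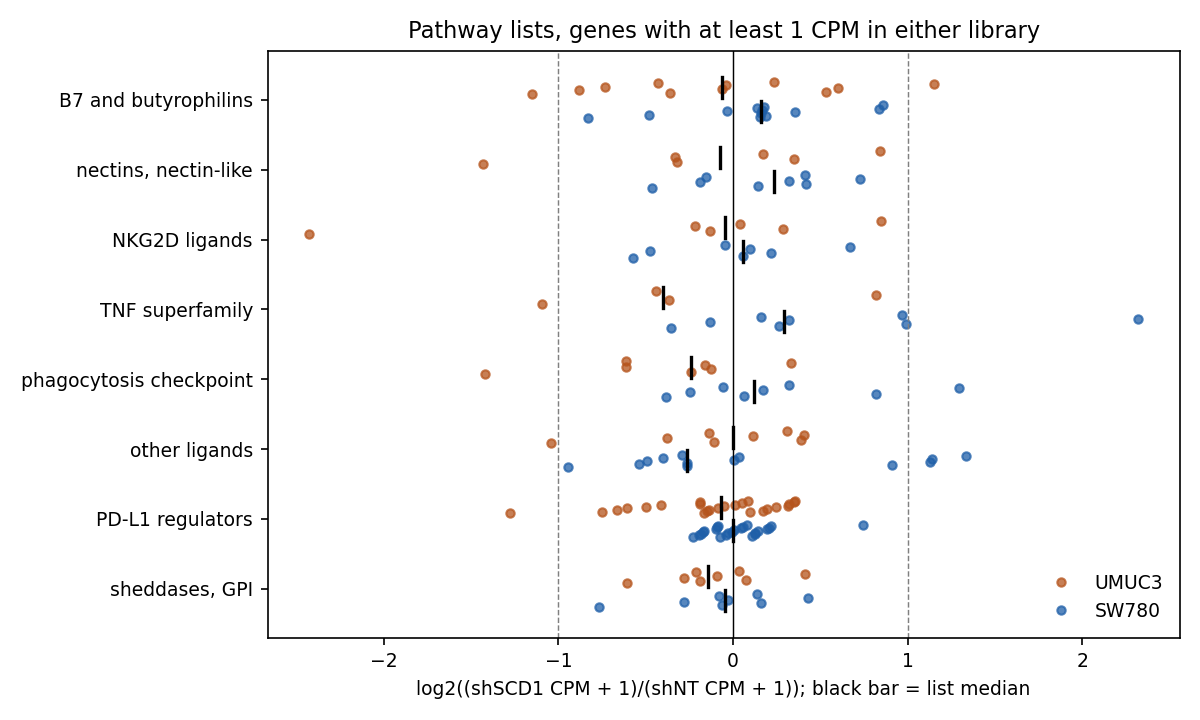
Log2 ratio of shSCD1 over shNT for the genes of 8 pathway lists with at least 1 CPM in either library, in UMUC3 (brown) and SW780 (blue); each point is a gene, black bars are list medians and dashed lines mark the size rule. In the lists of B7, nectin, NKG2D, TNF superfamily and engulfment genes the UMUC3 median lies left of 0 and the SW780 median right of it. These lists include the ligand genes themselves, TNFSF18 among them, so their medians partly restate the ligand results. In UMUC3 the nectin and NKG2D lists each had 3 kept genes above 0 and 3 below. The NKG2D medians were −0.05 and 0.06, beside 0.04 and −0.008 over all genes kept.

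Blood cells carry several of these ligands, and their markers were looked at beside them. Of 16 markers, 6 are in the UMUC3 table and 11 in the SW780 table, and 5 and 9 of these had under 1 CPM in both libraries. Their summed level was 67.8 and 48.3 CPM in UMUC3 and 21.1 and 15.3 CPM in SW780, most of it from CD68 (67.0 and 47.5 CPM in UMUC3, 17.4 and 12.6 CPM in SW780), whose reads are uncertain because another gene overlaps 85.8% of its exons. In SW780 PTPRC, which encodes the leukocyte protein CD45, had 3 and 0 reads, CD14 9 and 6 and CD3D, a T cell marker, 20 and 6. ITGAM, a myeloid integrin gene, was kept in SW780 with 73 and 32 reads, 1.71-fold lower in shSCD1 (1.11 to 2.68). In UMUC3 CD14 had 0 and 3 reads and ITGAM 9 and 14. Of 13 receptor genes on lymphocytes and myeloid cells, 8 are listed for UMUC3, where SIRPA and TNFRSF9 were kept and PDCD1 and TIGIT had 0 reads. For SW780 9 are listed and 3 were kept: SIRPA, CD96 (56 and 35 reads) and KLRK1, the gene of NKG2D (41 and 29 reads). Of the exonic bases of KLRK1, 62.7% are shared with another gene. In SW780, summed levels of fibroblast and endothelial markers were 198 and 285 CPM, higher in shSCD1 like most of the ligand genes. Of the 6 kept there, 1 had a ratio below 0, at −0.58. The other 5 had ratios above 0, led in level by COL3A1 (139 and 203 CPM), LUM (35.9 and 40.0 CPM), ACTA2 (14.9 and 29.4 CPM) and COL1A1 (2.90 and 6.69 CPM). DCN, COL1A2 and PDGFRB had 0 reads in both libraries. In UMUC3 that list summed to 4.56 and 2.09 CPM. Of 14 epithelial and urothelial markers, 5 were kept in UMUC3, where KRT18 (372 and 170 CPM) and KRT7 were lower by the size rule and the sum was 534 and 261 CPM. In SW780 11 were kept, UPK1A was lower (36.4 and 14.5 CPM) and the sum was 12837 and 10837 CPM. Of the epithelial markers kept, 1 had a ratio above 0 and 4 below in UMUC3, and 3 above and 8 below in SW780. Transcripts of the mitochondrial genome took 4.23% and 6.02% of reads in UMUC3 and 4.33% and 4.51% in SW780. The part of these markers and transcripts in the ligand results was not tested. Totals without the mitochondrial transcripts were among the alternatives below.

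A count test over all 4 libraries with cell line as a block fits 1 shSCD1 difference, taken as common to both lines, to each gene. The quasi-likelihood test of edgeR (1 residual degree of freedom) called 0 of 13554 genes at a Benjamini-Hochberg adjusted p of 0.05, with 418 at an unadjusted p under 0.05. SCD, the targeted gene, had an adjusted p of 0.722 in edgeR and 8.4e-23 in DESeq2. The edgeR test thus missed a known difference, so the absence of a ligand call in it does not show that none exists. TNFSF18 was chosen for SW780 and had 0 reads in UMUC3, so its unadjusted p of 0.0215 in edgeR (adjusted 0.986) rests on SW780 alone. Of the other 9 ligand genes, 0 had an unadjusted p under 0.05 in edgeR, where their lowest adjusted p was 0.986. DESeq2 called 26 of 15241 genes and none of the 10, whose lowest adjusted p was 0.9999, with 346 genes and 0 of the 10 at an unadjusted p under 0.05. Both tools fit 1 common difference, so opposite differences in the lines cancel. CD274 thus had a fitted log2 fold change of −0.0004 in edgeR and −0.03 in DESeq2. For ligand genes that went opposite ways, the absence of a call in either tool therefore decides nothing. None of the 10 could pass the size rule in both lines, as none passed it in UMUC3. Of all genes kept in both lines 0.224% passed it in the same direction.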

How the data were processed

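RNA of UMUC3 and SW780 cells was sequenced from TruSeq libraries on a NovaSeq instrument, per the labels' protocols, and hg38 is the build named in the submitters' processing notes. What aligner, counter, annotation and strand setting were used was not given in the sources used here. Per line, the authors deposited 1 table with, per the file headers, a GFOLD value (setting 0.01), a log2 fold change, an empirical FDR (a q-value, 1 for every gene and not used) and 2 columns headed RPKM. Despite that heading, the deposited signal holds counts brought to 1 common total and not divided by gene length. Every low value (up to 20 reads) and over 99.9% of values above 0 were within 0.1 reads of whole multiples of 1 step per column, so whole reads were recovered by division.

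Totals were 22818368 and 32540576 reads in UMUC3 (shNT, shSCD1) and 34087871 and 25549737 in SW780, with 30148 and 17752 genes; 3 reads are 0.131, 0.0922, 0.0880 and 0.117 CPM. Names came from the tables or, where blank, from Ensembl identifiers. Exon lengths and positions are from GENCODE 29 and promoters from RefSeq. Members and lists were chosen with earlier results of these data known. All 10 genes were named, with list genes past the size rule, SCD and the nearest patterns of a member past it; JAK2, QPCTL, IRF1, CMTM6, TNFSF4, TNFRSF18, KRT19, PTPRC, CD14, CD68, CD3D, ITGAM, COL3A1, LUM, ACTA2, COL1A1, PDGFRB, PDCD1, TIGIT, DCN, COL1A2, VSIR, NECTIN1, MICB, ULBP3 and TNFSF10 were named after their values were seen. CD96, KLRK1 and RAET1G were also named after their values were seen. No test within a line was possible. Intervals and floors cover counting error alone, as reads of amplified libraries can repeat a molecule. Computations used Python 3.11.15, scipy 1.17.1, edgeR 4.0.16 and DESeq2 1.42.0 and were tested on simulated data. Alternatives were other pseudocounts, filters and scalings and the authors' fold changes.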

Additional observations from a re-analysis of the deposited data

Results flagged for a closer look

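For 4 ligand genes, PDCD1LG2 among them although it had under 1 CPM in both UMUC3 libraries and a GFOLD value of 0 there in the authors' deposited table, the libraries of the lines lay on opposite sides, with each counting interval away from 1: lower in UMUC3 shSCD1 and higher in SW780 shSCD1. Of the 11152 genes kept in both lines 9.58% did the same, as did 3 of the 7 ligand genes kept in both. The SW780 fold over the UMUC3 fold was 4.08 for CD274 (2.69 to 6.22), 6.47 for PDCD1LG2 (2.00 to 24.5), 1.38 for PVR (1.29 to 1.48) and 1.69 for NECTIN2 (1.54 to 1.87). The intervals are of reads. With 1 library per group the difference between the lines was not tested, and PDCD1LG2 rests on 11 and 5 reads in UMUC3.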

How the results depend on the processing

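Replicates could not be paired within a line, because the labels number none and each group has 1 library. The count test above paired the 2 libraries of each line by taking cell line as a block. None of 171 recomputed ligand ratios changed sign, though GFOLD is 0 for some, and a change of pseudocount cannot turn a sign. Of the 171, 154 stayed within their counting interval. With a pseudocount of 0.1 CPM, 1 ligand gene passed the size rule in UMUC3 (CD274) and 2 in SW780 (PDCD1LG2 and TNFSF18), as with the authors' log2 fold change (1 and 2), against 0 and 1. Over all genes, 653 passed in UMUC3 and 327 in SW780; with 0.1 CPM these were 1235 and 600, with 5 CPM 181 and 142, with the authors' log2 fold change 1266 and 632, and with at least 5 CPM in either library 426 in UMUC3. Of the other list genes 11 and 5 passed; in UMUC3 3 did with a pseudocount of 5 CPM and 6 with the 5 CPM filter, and in SW780 10 did with 0.1 CPM and 11 with the authors' log2 fold change. The SW780 median of the ligand genes, 0.35, was 0.25 without mitochondrial transcripts in the totals, as TNFSF9 then passed the filter, 0.25 without a filter and 0.27 by GFOLD. Without TNFSF18, an alternative chosen after seeing the data, the median was 0.25 and 0 ligand genes passed the size rule in SW780. Depth limits TNFSF18 in UMUC3 most, with 0 reads, and then PDCD1LG2, TNFSF9 and ULBP2 there, with 5 to 42 reads.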

Other observations

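Some relatives of the ligand genes differed the same way in both lines without passing the size rule in either, and were picked after their values were seen. NECTIN1, which encodes a nectin that pairs with NECTIN4 and CD96, was 1.84-fold higher in UMUC3 shSCD1 (15.3 and 28.3 CPM; 1.63 to 2.09) and 1.66-fold higher in SW780 shSCD1 (252 and 417 CPM; 1.61 to 1.70), while NECTIN2 went opposite ways. VSIR, which encodes the checkpoint protein VISTA, had 27 and 6 reads in UMUC3, 6.42-fold lower (2.60 to 19.0), and 1302 and 537 reads in SW780, 1.82-fold lower (1.64 to 2.01).

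Among NKG2D ligands, MICB was 1.63-fold higher in SW780 shSCD1 (16.4 and 26.7 CPM, 1.45 to 1.82) beside MICA at 1.07. RAET1G was 1.58-fold lower there (8.42 and 5.32 CPM, 1.29 to 1.95) and RAET1E 1.55-fold lower (1.14 to 2.12). Of the 7 kept in SW780, 4 had ratios above 0 and 3 below. In UMUC3 shSCD1 ULBP3 was 2.00-fold higher (4.03 and 8.05 CPM, 1.57 to 2.56). TNFSF10, which encodes the death ligand TRAIL, stood at 32.4 and 65.2 CPM in SW780, 2.02-fold higher (1.87 to 2.18), and had 2 and 0 reads in UMUC3.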
